A study of Cucumis melo with 30 samples.

Results

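CmPSY1 (identifier MELO3C025102) and CmOr (MELO3C005449) are the melon genes for the fruit phytoene synthase and for ORANGE, the protein of the flesh colour locus. They were taken by identifier, as 2 of 27427 rows of the count table. The rule uses identifiers and no expression value, although it was written with earlier results of these data known. That table gives unnormalized reads per gene from RNA sequencing of oriental melon fruit (Cucumis melo, a thin-skinned type grown mainly in East Asia). The labels name the cultivars YMR-WF and HDB-OF (YMR and HDB from here on), each sampled on days 5, 15, 25, 30 and 35 after anthesis, the opening of the flower. They mention no treatment, spell out neither WF nor OF, and give the tissue only as fruit, without naming flesh, rind or placenta. This gave 10 groups of 3 libraries (30 libraries), whose total counts lay between 17299247 and 23261097. The labels do not say whether those 3 came from separate fruits or plants, so the p-values measure the spread between these libraries, which may be technical in part. In the main fit that spread was estimated for each gene over all 10 groups together, and not from the compared libraries alone.

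Phytoene synthase joins geranylgeranyl diphosphate into phytoene in the plastid, the first committed step of carotenoid synthesis, and it often limits how much carotenoid a tissue makes. ORANGE is a plastid protein with a DnaJ-like cysteine-rich zinc finger domain that holds phytoene synthase protein stable and promotes the formation of chromoplasts, the plastids that store carotenoids. In melon, orange and non-orange flesh are known to differ by an amino acid change in CmOr, which acts on carotenoid build-up after transcription. Counts per gene do not show which allele a cultivar carries.

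Both genes passed the low-count filter, as did 18426 of the 27427 in all. Levels are in CPM, counts for every 1000000 reads of a library size scaled by the trimmed mean of M values (TMM), a correction for differences in RNA composition. A longer transcript yields more reads, so CPM values were compared between samples and not between the 2 genes. A difference was called where the adjusted p of edgeR's quasi-likelihood test, over all tested genes, was under 0.05. Whether the ranges of groups overlapped is given as description only. The share of all tested genes without overlap was not computed, so a gap does not show how unusual a gene was. The other genes of the carotenoid pathway and markers of fruit tissues are not analysed here, because 0 of the 27427 identifiers matched the available table of gene names.

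Both genes had their highest mean in HDB on day 25, and they differed mainly in the size of their changes. CmPSY1 was low in both cultivars on days 5 and 15 and rose sharply by day 25. That rise was several times larger in HDB than in YMR, after which CmPSY1 fell in HDB. CmOr moved within a narrow range, and its mean was lower in YMR than in HDB on each of the 5 days. The mean CmPSY1 level spanned 23.3 to 421 CPM over the 10 groups, and the mean CmOr level 47.0 to 108 CPM. In RNA from a bulk sample, fewer cells of a type and less RNA per cell cannot be told apart.

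**Figure D1:**
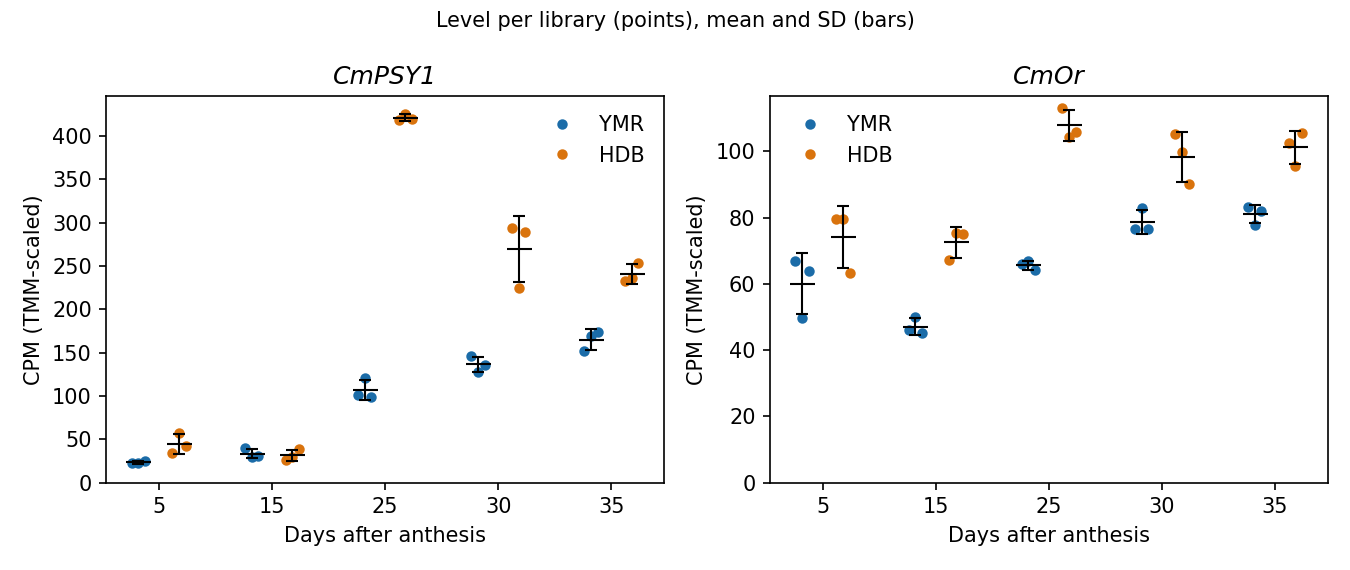
CPM (TMM-scaled) of CmPSY1 (left) and CmOr (right) against days after anthesis, with a point for each library, YMR left of HDB, and bars for mean and SD (n = 3). CmPSY1 stood between 418 and 425 CPM in the HDB libraries of day 25, above every other library, while CmOr stayed between 45.1 and 113 CPM throughout.

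In YMR the mean of CmPSY1 was higher at each sampled day than at the one before. Its 3 libraries held 22.0, 22.4 and 25.4 CPM on day 5 and 39.4, 29.7 and 30.9 CPM on day 15. They held 102, 120 and 98.5 CPM on day 25, 146, 128 and 135 CPM on day 30, and 152, 169 and 174 CPM on day 35. The ranges of successive days did not overlap at any of the 4 steps.

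CmPSY1 in HDB instead had a peak. Its libraries held 34.4, 56.7 and 42.7 CPM on day 5 and 26.0, 29.8 and 38.4 CPM on day 15. On day 25 they held 418, 425 and 420 CPM, a spread of 0.864% of the mean (SD) where counting alone would give 1.06%. Day 30 gave 293, 225 and 289 CPM, with replicate 2 lowest, and day 35 gave 232, 235 and 254 CPM. Days 5 and 15 overlapped, as did days 30 and 35, and the day 25 libraries stood above all others.

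Ordered by mean, CmPSY1 was highest in HDB on day 25 (421 ± 3.6 CPM, SD, n = 3), followed by HDB on day 30 (269 ± 38) and day 35 (240 ± 11), which overlapped each other. YMR followed with 165 ± 12 CPM on day 35, 136 ± 9.0 on day 30 and 107 ± 12 on day 25, none of them overlapping its neighbour. Below these lay HDB on day 5 (44.6 ± 11 CPM), YMR on day 15 (33.3 ± 5.3) and HDB on day 15 (31.4 ± 6.4), overlapping in turn. YMR on day 5 was lowest, at 23.3 ± 1.9 CPM, and did not overlap HDB on day 15. All CmPSY1 libraries of days 25 to 35 thus stood above all those of days 5 and 15, in both cultivars.

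CmOr in YMR dipped on day 15 with TMM scaling. Its libraries held 66.9, 49.6 and 63.7 CPM on day 5, where replicate 2 was lowest, and 46.0, 50.0 and 45.1 CPM on day 15. They then held 65.9, 66.8 and 64.2 CPM on day 25, 76.6, 82.9 and 76.6 CPM on day 30, and 83.2, 77.9 and 82.0 CPM on day 35. Days 5 and 15 overlapped, and so did days 30 and 35. With libraries scaled by total counts alone, the CmOr mean in YMR was 53.5 CPM on day 15 and lowest on day 25, at 49.8 CPM.

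CmOr in HDB held 79.5, 79.4 and 63.2 CPM on day 5, and 67.1, 75.4 and 75.0 CPM on day 15, which overlapped. The libraries of day 25 held 113, 104 and 106 CPM, those of day 30 held 105, 99.7 and 90.2 CPM, and those of day 35 held 102, 95.6 and 106 CPM. With TMM scaling, the 3 later days overlapped one another and stood above both earlier days. Scaled by total counts, replicates 1 and 2 of day 5 (95.3 and 88.0 CPM) stood above replicate 3 of day 30 (87.9 CPM).

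In the order of CmOr means, HDB took the first 3 places with 108 ± 4.7 CPM on day 25, 101 ± 5.1 on day 35 and 98.4 ± 7.6 on day 30, all overlapping their neighbours. YMR on day 35 (81.0 ± 2.8 CPM), YMR on day 30 (78.7 ± 3.6), HDB on day 5 (74.1 ± 9.4) and HDB on day 15 (72.5 ± 4.7) came next, overlapping in turn. The lowest places were those of YMR on day 25 (65.6 ± 1.3 CPM), day 5 (60.1 ± 9.2) and day 15 (47.0 ± 2.6), also overlapping in turn. With TMM scaling, gaps thus lay only between the later HDB days and YMR on day 35, and between HDB on day 15 and YMR on day 25.

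The first comparison was between the cultivars on each day. CmPSY1 was lower in YMR on days 5, 25, 30 and 35, by most on day 25. On that day the YMR mean was 25.3% of the HDB mean, and the difference, YMR minus HDB on the log2 scale, came to -1.98 with an SE of 0.15 (edgeR adjusted p = 2.4e-10). It was -0.94 (SE 0.15, edgeR adjusted p = 0.00011) on day 5, where the YMR mean was 52.2% of that of HDB. By day 30 it was -0.98 (SE 0.15, edgeR adjusted p = 2e-05), and by day 35 it was -0.54 (SE 0.15, edgeR adjusted p = 0.0043), with YMR at 50.7% and 68.6% of HDB. In none of these 4 days did the ranges of the cultivars overlap, and the share of all tested genes without such overlap was not computed. Scaled by total counts, the differences were -0.87 on day 5, -2.34 on day 25, -1.22 on day 30 and -0.69 on day 35. Day 15 was different: the ranges overlapped and the log2 difference was 0.09, with a 95% interval of -0.23 to 0.40 (edgeR adjusted p = 0.69).

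CmOr was lower in YMR on all 5 days, although its day 5 call was lost under several settings and its day 30 call without 1 library. On the log2 scale it differed by -0.62 (SE 0.10, edgeR adjusted p = 2.3e-05) on day 15 and -0.72 (SE 0.10, edgeR adjusted p = 1.4e-06) on day 25, where YMR stood at 64.9% and 60.8% of HDB. Days 30 and 35 each gave -0.32 (SE 0.10, edgeR adjusted p = 0.012 and 0.0082), with YMR at 80.0% and 80.1% of HDB. Scaled by total counts, the differences were -0.62 on day 15, -1.07 on day 25, -0.57 on day 30 and -0.47 on day 35. The cultivars' ranges did not overlap on these 4 days. On day 5 they did, and the difference of -0.30 (SE 0.10, edgeR adjusted p = 0.027) rested on single libraries. Without replicate 2 of YMR it was -0.18 (edgeR adjusted p = 0.17), and without replicate 1 or 2 of HDB it was -0.25 (edgeR adjusted p = 0.11 either way). With only the 6 libraries of day 5 in the fit its adjusted p was 0.26. The day 30 call of CmOr was lost without replicate 1 of HDB (-0.27, edgeR adjusted p = 0.065).

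These calls stand against many others. On day 5, 21.8% of the tested genes were called and 11.4% were lower in YMR, both members among them. Lower in YMR were 20.5% on day 15 (40.9% called), 21.7% on day 25 (48.3% called), 16.5% on day 30 (33.4% called) and 24.2% on day 35 (47.7% called). The size of the CmPSY1 difference on day 25 was exceeded by 13.9% of tested genes in either direction. The share was 14.4% on day 5, 22.2% on day 30, 49% on day 35 and 87.8% on day 15. For CmOr the share with a larger difference ran between 36.0% on day 15 and 65.6% on day 35. Averaged over the 5 days, the difference came to -0.87 on the log2 scale with an SE of 0.07 (edgeR adjusted p = 1.4e-10) for CmPSY1, and to -0.46 with an SE of 0.04 (edgeR adjusted p = 3.9e-09) for CmOr, where 51% of tested genes were called and 25.2% were lower in YMR. CmOr shared its 5 daily calls, lower in YMR each time, with 93 other genes (0.505%). CmPSY1 shared its own sequence of daily calls with 67 (0.364%), and the tested genes showed 234 different sequences.

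**Figure D2:**
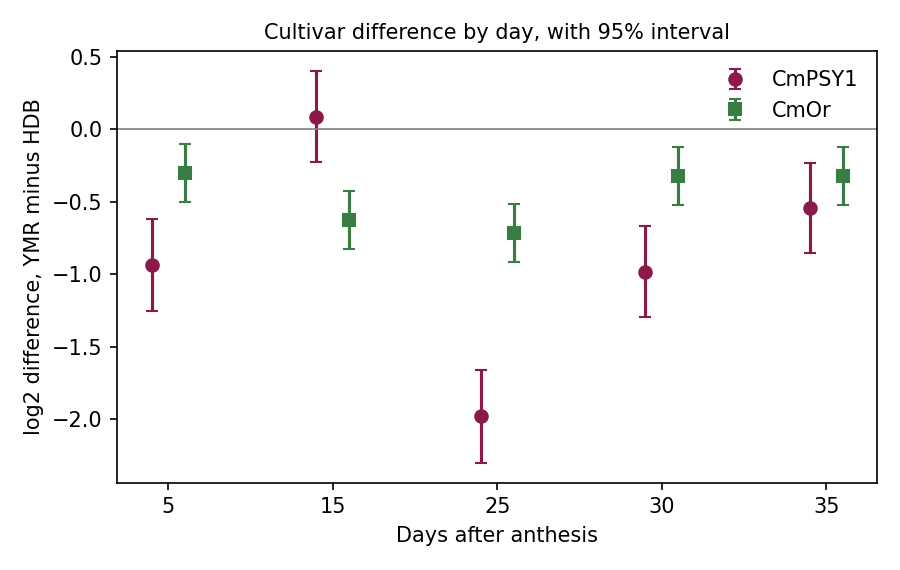
The log2 difference between the cultivars (YMR minus HDB) for CmPSY1 (circles) and CmOr (squares) against days after anthesis, with 95% intervals from the edgeR fit. CmPSY1 ranged between 0.09 on day 15 and -1.98 on day 25, while CmOr stayed between -0.30 and -0.72.

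The second comparison was between successive days. From day 5 to day 15, CmPSY1 went opposite ways in the cultivars, with a log2 change of 0.52 in YMR (SE 0.15, edgeR adjusted p = 0.0061) and -0.51 in HDB (SE 0.15, edgeR adjusted p = 0.0064). Each call was lost without 1 library. Without replicate 1 of YMR day 15 the YMR change was 0.38 (edgeR adjusted p = 0.054), and without replicate 2 of HDB day 5 the HDB change was -0.30 (edgeR adjusted p = 0.098). When only the compared groups were fitted, the HDB change had an adjusted p of 0.1. The difference between these changes, YMR minus HDB, came to 1.02 (SE 0.22, edgeR adjusted p = 0.00093) and was called with any single library left out (34.8% of tested genes were called for this difference). CmOr fell in YMR over this step (log2 change -0.35, SE 0.10, edgeR adjusted p = 0.0034; 0.078 when only the compared groups were fitted). In HDB its change was -0.03, with a 95% interval of -0.23 to 0.17, and the difference between the cultivars, -0.32 (SE 0.14), was not called (edgeR adjusted p = 0.07). It was called without replicate 2 of YMR day 5 (-0.44, edgeR adjusted p = 0.0079) or replicate 1 of HDB day 5 or day 15 (-0.38, edgeR adjusted p = 0.048 each). Of all tested genes, 57.4% were called over this step in YMR and 59.4% in HDB.

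From day 15 to day 25, CmPSY1 rose in both cultivars. The YMR mean reached 3.20 times its day 15 level, a log2 rise of 1.68 (SE 0.16, edgeR adjusted p = 1.5e-09). In HDB it reached 13.4 times that level, a log2 rise of 3.75 (SE 0.17, edgeR adjusted p = 3e-15). The difference between these changes was -2.07 (SE 0.22, edgeR adjusted p = 1.1e-07), among 41.4% of tested genes called for it. The HDB rise was exceeded in size by 9.71% of tested genes and the YMR rise by 26.0%. The log2 change of CmOr in YMR was 0.48 (SE 0.10, edgeR adjusted p = 0.00014), but -0.10 (edgeR adjusted p = 0.37) when libraries were scaled by total counts alone. In HDB CmOr rose to 1.49 times its day 15 level (log2 change 0.57, SE 0.10, edgeR adjusted p = 1.2e-05). The CmOr changes of the cultivars differed by -0.09 (95% interval -0.38 to 0.19, edgeR adjusted p = 0.63), and by -0.45 (edgeR adjusted p = 0.013) under total counts. Called as higher over this step were 32.4% of tested genes in YMR (67.4% called) and 32% in HDB (71% called).

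The sign of the YMR step for CmOr thus turned with the scaling. The mean TMM factor of the YMR libraries was 0.759 on day 25 and 1.14 on day 15, against 0.969 and 1.13 in HDB. Scaling by total counts moved the median log2 change of all tested genes over this YMR step to -0.66, from -0.07 with TMM. Set against that median, CmOr stood 0.56 higher with TMM and 0.55 higher with total counts. A change of scaling shifts all genes and their median by nearly the same amount. These values therefore agree by construction and are no separate evidence of a rise. CmPSY1 rose under both scalings, with a YMR log2 change of 1.08 under total counts, 1.74 above the median of all genes. Total counts also gave a CmOr change of 0.35 in HDB over this step.

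**Figure D3:**
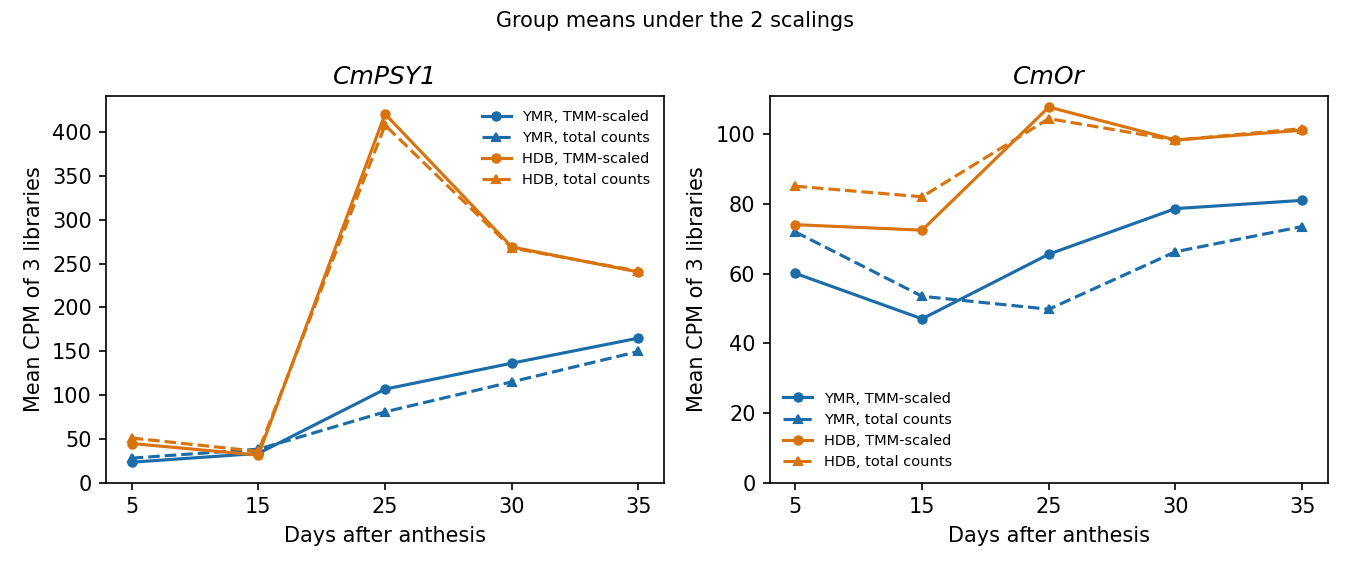
Mean CPM of the 3 libraries of each group against days after anthesis, with TMM-scaled library sizes (solid lines) and total counts alone (dashed lines). In YMR on day 25, CmPSY1 was 107 CPM with TMM and 80.8 CPM with total counts, and CmOr was 65.6 and 49.8 CPM, whereas the HDB lines nearly coincide from day 25 on.

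From day 25 to day 30, the courses of CmPSY1 parted. In YMR its log2 change of 0.35 (SE 0.15) was not called at an edgeR adjusted p of 0.059, and it passed with RLE size factors (0.038), DESeq2 (0.03), total counts (0.0064), no low-count filter (0.046), a fit to the compared groups alone (0.0055) and without replicate 2 of YMR day 25 (0.024). In HDB it fell to 63.9% of its day 25 mean (log2 change -0.65, SE 0.15, edgeR adjusted p = 0.0012). The changes differed by 1.0, YMR minus HDB (SE 0.21, edgeR adjusted p = 0.001). CmOr rose in YMR (log2 change 0.26, SE 0.10, edgeR adjusted p = 0.031), a call lost without replicate 3 of YMR day 25 (0.053) or replicate 2 of YMR day 30 (0.081). With total counts this YMR change was 0.41. In HDB the CmOr change was -0.13, with a 95% interval of -0.33 to 0.07. The changes of CmOr differed by 0.40 (SE 0.14, edgeR adjusted p = 0.031), a call lost in 6 of the 12 fits that left out a library (edgeR adjusted p 0.05 to 0.086). Those libraries were replicate 1 of HDB day 25, replicates 2 and 3 of HDB day 30, replicates 1 and 3 of YMR day 25 and replicate 2 of YMR day 30. Called over this step were 45% of tested genes in YMR, 41.8% in HDB and 30% for the difference.

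Neither gene was called over the last step, from day 30 to day 35, in either cultivar, where 30.6% of tested genes were called in YMR and 27.5% in HDB. For CmPSY1 the 95% interval of the log2 change was -0.04 to 0.58 for YMR and -0.47 to 0.15 for HDB. For CmOr it ran from -0.16 to 0.24 in both cultivars. The smallest adjusted p of the 4 tests, 0.17, belonged to CmPSY1 in YMR, and it was 0.021 when only the compared groups were fitted. The difference between the cultivars' changes was not called for either gene (0.44, edgeR adjusted p = 0.12, for CmPSY1, which was called at 0.013 when only the compared groups were fitted). For it, 33.1% of tested genes were called.

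**Figure D4:**
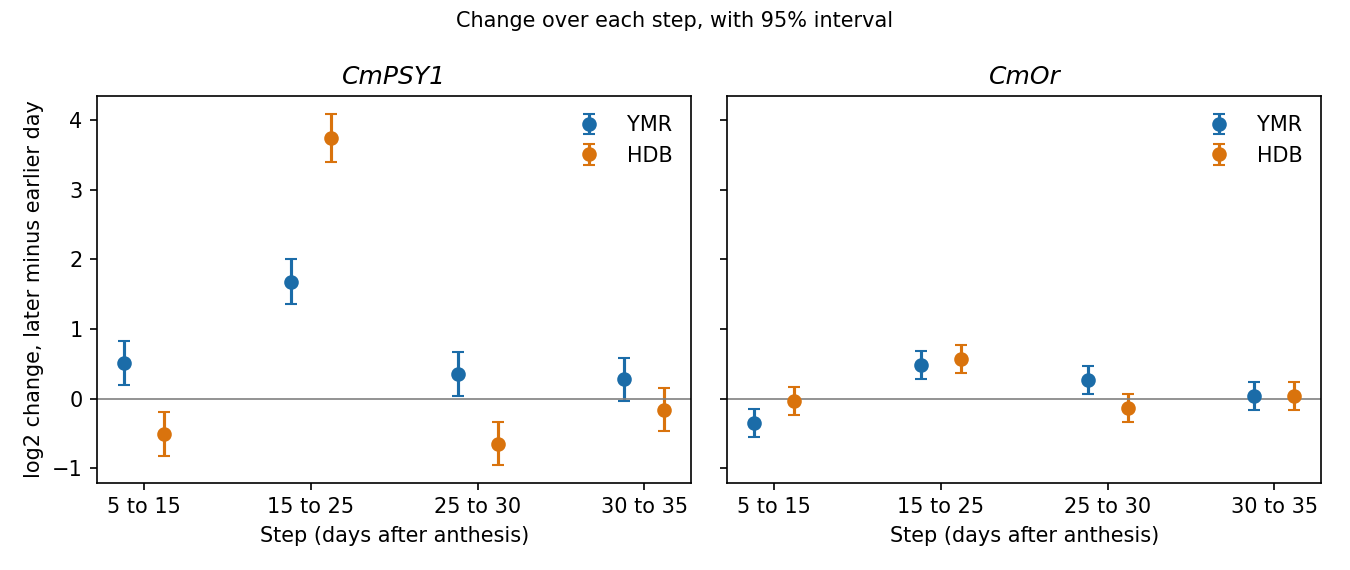
The log2 change of CmPSY1 (left) and CmOr (right) over each step between sampled days, later minus earlier, in YMR and HDB, with 95% intervals from the edgeR fit. CmPSY1 changed by 1.68 in YMR and 3.75 in HDB from day 15 to day 25, and no change of CmOr was larger than 0.57.

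Over the whole span, CmPSY1 on day 35 stood at 7.09 times its day 5 mean in YMR and at 5.39 times in HDB. The log2 changes were 2.83 (SE 0.16, edgeR adjusted p = 1.1e-13) and 2.43 (SE 0.16, edgeR adjusted p = 1e-12). Their difference, 0.39 (SE 0.21, 95% interval -0.05 to 0.84), was not called (edgeR adjusted p = 0.16), and without replicate 1 of HDB day 5 it was 0.55 (edgeR adjusted p = 0.04). CmOr on day 35 stood at 1.35 times its day 5 mean in YMR and 1.37 times in HDB, with log2 changes of 0.43 (SE 0.10, edgeR adjusted p = 0.00031) and 0.45 (SE 0.10, edgeR adjusted p = 0.00018). Under total-count scaling these were 0.03 (edgeR adjusted p = 0.79) in YMR and 0.26 (edgeR adjusted p = 0.024) in HDB. Higher on day 35 than on day 5 were 33.1% of tested genes in YMR (75.4% called) and 36.2% in HDB (79.3% called). The CmOr difference between the cultivars' changes was -0.02, with a 95% interval of -0.30 to 0.26, and 36% of tested genes were called for this difference.

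A joint test asked whether the course over the 5 days differed between the cultivars at all. It gave F = 24.4 (edgeR adjusted p = 5e-07) for CmPSY1 and F = 4.18 (edgeR adjusted p = 0.016) for CmOr, and 74.4% of tested genes passed it. For CmOr, F was 8.95 with total counts. With a library left out, its F ran from 3.32 without replicate 1 of HDB day 25 (edgeR adjusted p = 0.039) to 7.18 without replicate 2 of YMR day 5. Over the 4 steps, CmPSY1 rose, rose and then had no call in YMR, and fell, rose, fell and had no call in HDB. Of the other tested genes, 3 (0.0163%) had that same set of calls. With TMM, CmOr fell, rose and rose in YMR and rose once, from day 15 to day 25, in HDB. Its set of calls was shared by 24 others (0.13%). Such small shares were common: the 18426 tested genes fell into 2808 different sets, and that of CmPSY1 ranked 853 by frequency.

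The ratio of the CmPSY1 count to the CmOr count within a library does not depend on how libraries are scaled. Its level reflects transcript length as well, so only differences between groups were read. In YMR the ratio was 0.329, 0.451 and 0.399 on day 5, and 0.856, 0.594 and 0.684 on day 15. It was 1.54, 1.80 and 1.53 on day 25, 1.90, 1.54 and 1.77 on day 30, and 1.82, 2.17 and 2.12 on day 35. In YMR the ratio was thus higher on day 15 than on day 5, and on day 25 than on day 15, without overlap, and the later days overlapped their neighbours.

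In HDB the ratio was 0.432, 0.714 and 0.675 on day 5, and 0.387, 0.395 and 0.512 on day 15. On day 25 it was 3.70, 4.07 and 3.96, on day 30 it was 2.79, 2.26 and 3.20, and on day 35 it was 2.27, 2.46 and 2.40. Its highest values were those of day 25, and no library of another day reached them.

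On the log2 scale the ratio on day 25 averaged 0.70 ± 0.13 in YMR and 1.97 ± 0.07 in HDB (SD, n = 3), a difference of -1.27. The cultivars did not overlap on day 15, when YMR was higher by 0.72, nor on day 30 (difference -0.65) and day 35 (-0.23), when YMR was lower. With a library left out, the day 35 difference lay between -0.27 and -0.15. An exact two-sided permutation test of 3 libraries against 3 gave p = 0.1 on each of these 4 days, the smallest it can give (0.125 after Benjamini-Hochberg adjustment over 5 days). Day 5 overlapped (difference -0.60, exact p = 0.2). The log2 ratio on day 25 was higher than on day 15 by 1.20 in YMR and by 3.19 in HDB, without overlap (exact p = 0.1 in each cultivar). YMR thus lay above HDB on day 15 and below it on day 25. On day 15 the log2 cultivar difference was 0.09 for CmPSY1, not called, and -0.62 for CmOr. The higher ratio of YMR on that day thus lay mostly in its lower CmOr.

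**Figure D5:**
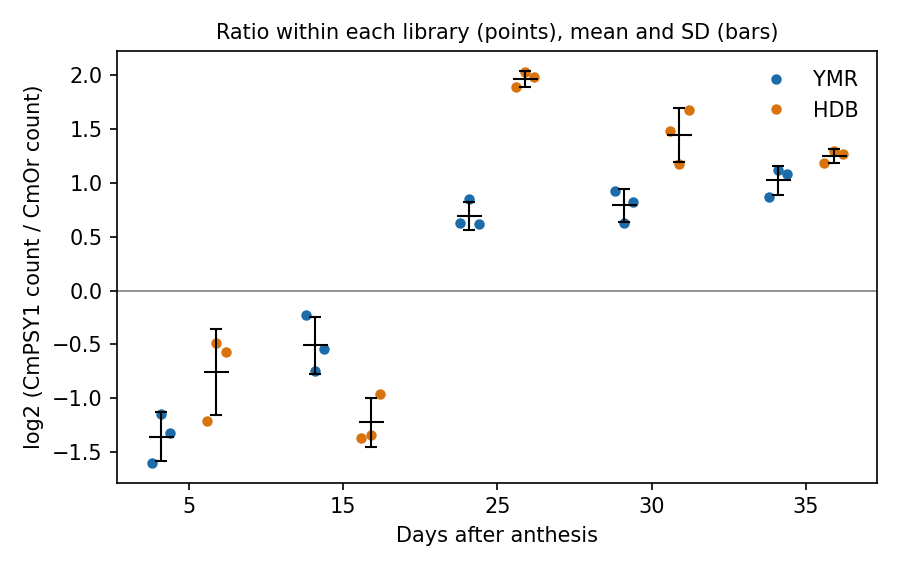
The log2 ratio of CmPSY1 to CmOr counts in each library (points) against days after anthesis, YMR left of HDB, with mean and SD bars (n = 3). YMR lay above HDB on day 15 (mean -0.51 against -1.23) and below it on day 25 (0.70 against 1.97), and the gap was 0.23 by day 35.

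The genes whose course was most like that of each member were sought among 13466 others with a mean of at least 10 CPM in some group. Likeness was the Pearson correlation of log2 CPM over the 30 libraries, which share day, cultivar and library scaling. Closest to CmPSY1 were MELO3C008114 (r = 0.972) and MELO3C024495 (r = 0.971). The first held 95.2 ± 9.4 CPM in YMR and 379 ± 18 CPM in HDB on day 25, 166 ± 8.6 CPM in YMR and 224 ± 26 CPM in HDB on day 30, and 169 ± 24 CPM in YMR and 298 ± 21 CPM in HDB on day 35. MELO3C024495 held 22.9 ± 2.2, 36.1 ± 2.7 and 30.9 ± 1.2 CPM in YMR on days 25, 30 and 35, and 47.7 ± 3.2, 48.5 ± 6.4 and 46.5 ± 0.37 CPM in HDB. It had no peak on day 25 in HDB, and the day 35 mean of MELO3C008114 in HDB was above its day 30 mean, unlike that of CmPSY1. Closest to CmOr were MELO3C008681 (r = 0.938) and MELO3C008513 (r = 0.915). Unlike CmOr, MELO3C008681 had its highest mean in HDB on day 30 (36.7 ± 1.0 CPM, against 33.0 ± 3.8 on day 25). Its lowest mean was 6.83 ± 0.21 CPM, in YMR on day 15. MELO3C008513 held 26.2 ± 1.6 CPM in YMR and 51.1 ± 1.5 CPM in HDB on day 25. With Spearman's correlation, MELO3C008114 again came first for CmPSY1, while the pair closest to CmOr was replaced by other genes. A Pearson correlation of 0.9 or more was found with 258 genes for CmPSY1 and 5 for CmOr, and a Spearman correlation of that size with 92 and 10. Between the 2 members, the Pearson correlation was 0.815 over the 30 libraries, 0.789 over the 15 of YMR and 0.927 over the 15 of HDB, and Spearman's was 0.848, 0.757 and 0.846. The files do not pair these identifiers with names.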

How the data were processed

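What the authors deposited is a matrix of raw counts, unnormalized whole numbers of reads for each gene in 30 libraries, and all columns were used. Per the submitters' processing notes, HISAT2 (alignment) and HTSeq (counting) were run, with no version stated. Per the labels' protocols, frozen fruit gave total RNA by Trizol extraction and standard Illumina cDNA libraries. Genome build, annotation, strand and counting settings were not given in the sources used here. Reads shared with near-identical copies (other phytoene synthase or ORANGE genes) or with overlapping genes therefore could not be set apart. None of the identifiers occurs in a table of 28628 melon genes of the assembly USDA_Cmelo_AY_1.0, so no position or sequence is given.

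Genes were filtered with filterByExpr (minimum count 10, total 15), scaled by TMM and fitted in edgeR 4.0.16 (R 4.3.3, limma 3.58.1) with 1 mean per group and robust dispersions. Two-sided quasi-likelihood F tests were adjusted by Benjamini-Hochberg over 18426 genes. An SE is the size of the log2 change divided by the square root of F. The SEs and edgeR p-values thus use a spread shared by all 10 groups, except in fits to the compared groups alone. For the ratio, 0.5 was added to both counts. Likeness used log2 CPM with a prior count of 2, and the 2 closest genes for each member were named. The test was checked on simulated counts. No replicate pair was identical (chi-square per degree of freedom 7.35 or more), and log2 CPM correlated within groups at 0.963 to 0.992. The alternatives were RLE size factors, total counts, DESeq2 1.42.0, no low-count filter, a replicate block, fits to the compared groups alone, and each library left out in turn. The members and lists were chosen with earlier results of these data known.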

Additional observations from a re-analysis of the deposited data

Results flagged for a closer look

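These results differed between the cultivars by a test of the difference itself. For CmPSY1 the change differed, YMR minus HDB on the log2 scale, by 1.02 from day 5 to day 15, by -2.07 from day 15 to day 25 and by 1.0 from day 25 to day 30. The joint test over all 4 steps gave F = 24.4 for CmPSY1 and F = 4.18 for CmOr. For CmOr the change differed by 0.40 from day 25 to day 30, a call lost in 6 of 12 fits with a library left out, and total counts gave calls for the 2 earlier steps as well.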

How the results depend on the processing

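Of 260 recomputed values of the 2 genes under other settings, 240 kept their direction and their side of the threshold, and so did 385 of 420 with a library left out. Calls were gained or lost with the sign kept in 16 and 19 of these, and the sign turned in 4 and 16. Among those turned was the CmOr change in YMR from day 15 to day 25 under total counts, which also lost its call. RLE size factors, DESeq2 and no filter brought the CmPSY1 change in YMR from day 25 to day 30 past the threshold (0.39 each), as did total counts (0.51) and the compared groups alone (0.40). Total counts also reversed the CmOr change in YMR from day 15 to day 25 (-0.10) and lost its YMR change over the whole span (0.031) and its cultivar difference on day 5 (-0.24). They brought past it the CmOr difference in change between the cultivars, -0.38 from day 5 to day 15 and -0.45 from day 15 to day 25. Without the filter, the CmOr difference on day 5 was lost (-0.28) and its difference in change from day 5 to day 15 was called (-0.38). With the compared groups alone, the calls lost were those of CmOr on day 5 (-0.28), CmPSY1 in HDB from day 5 to day 15 (-0.50) and CmOr in YMR over that step (-0.34), while CmPSY1 from day 30 to day 35 was called in YMR (0.30) and for the difference between cultivars (0.49). Of values not called either way, the CmOr difference in change over the whole span turned to 0.036 with RLE and 0.037 with DESeq2, and the CmOr change in HDB from day 5 to day 15 to 0.005 without the filter. The cause was not tested, except that the TMM factors given above set total counts apart from TMM.

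With each library left out, the CmOr cultivar difference ran from -0.41 to -0.18 on day 5 and from -0.38 to -0.27 on day 30. The CmPSY1 change from day 5 to day 15 lay between 0.38 and 0.59 in YMR, and between -0.68 and -0.30 in HDB. From day 25 to day 30 the YMR change ran from 0.33 to 0.49 for CmPSY1 and from 0.25 to 0.32 for CmOr. The CmOr difference in change ran from -0.44 to -0.22 from day 5 to day 15 and from 0.34 to 0.45 from day 25 to day 30, and that of CmPSY1 over the whole span from 0.19 to 0.55. Uncalled values whose sign turned were the CmPSY1 cultivar difference on day 15 (-0.051 to 0.257), the CmOr change in HDB from day 5 to day 15 (-0.133 to 0.023) and from day 30 to day 35 (-0.018 to 0.091), and its difference in change over the last step (-0.048 to 0.087) and the whole span (-0.137 to 0.086). The log2 ratio difference, YMR minus HDB, lay between -0.83 and -0.47 on day 5 and between 0.58 and 0.85 on day 15. It lay between -1.345 and -1.23 on day 25 and between -0.79 and -0.535 on day 30. With 1 count added instead, it moved by less than the larger replicate SD of the cultivars.

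No pairing of libraries by equal replicate number was seen: in 0 of 15 pairs of compared groups did all same-numbered libraries deviate together (r over 0.1, median -0.02). Of the 45 same-numbered pairs, 4 were over 0.1, the highest at 0.315. With 3 libraries in a group, such a check cannot exclude a pairing. With the replicate number as a block no call of either gene changed, and the CmPSY1 difference on day 25 was -1.98. Counting error was 1.06% to 4.23% of the group mean for CmPSY1 and 2.10% to 3.21% for CmOr, while the SD of replicates was 0.864% to 25.3% and 2.01% to 15.3%. Fits to the compared groups alone were not made for values that use all 10 groups.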
